A study of Saccharomyces cerevisiae with 6 samples.

Results

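Serine palmitoyltransferase makes the first intermediate of every sphingolipid by joining serine to palmitoyl-CoA in the endoplasmic reticulum. In budding yeast the catalytic core is a dimer of Lcb1 and Lcb2, the small protein Tsc3 stimulates it, and the paralogous membrane proteins Orm1 and Orm2 hold it in check. When sphingolipids run short, kinases of the TORC2 and Ypk branch phosphorylate the Orm proteins and the brake is released. Myriocin is a fungal product that blocks the enzyme directly.

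The 5 genes of this enzyme and its brake, LCB1, LCB2, TSC3, ORM1 and ORM2, were chosen by name, and all 5 had a probe set among the 5420 genes that were tested. Each was read by 1 probe set that names that gene alone. LCB1 is YMR296C, LCB2 is YDR062W, TSC3 is YBR058C-A, ORM1 is YGR038W and ORM2 is YLR350W in the RefSeq gene table.

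The cultures were of the wild-type strain DBY746. The 3 Myriocin cultures grew with 300 ng/ml myriocin and the 3 No-myriocin cultures received the vehicle alone, with ethanol at 0.3% in both groups. All grew at 30 °C in SDC medium from an A600 of 0.002 and were collected at an A600 of 2. Each biological replicate gave total RNA for 1 single-colour array, and the values are log2 signals as the authors normalised them. A value is an average over a culture, so fewer cells expressing a gene and less RNA per cell cannot be told apart.

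After the authors' normalisation the arrays had like medians, with log2 signals of 11.06 to 11.08 in Myriocin cultures and 11.06 to 11.08 in No-myriocin cultures. Normalised values cannot show how alike the arrays were before that step. Genes specific to alpha cells (STE3, SAG1 and both alpha-factor genes) lay between 14.16 and 15.51 on all arrays. Of the 6 genes specific to a cells, MFA1 and MFA2 stayed under the background ceiling of 2.07, STE2, BAR1 and AGA2 stayed at or below 3.03, and STE6 lay between 6.51 and 7.22. The 26 probe sets above background for bacterial and phage control transcripts were all dimmer on the Myriocin arrays, by 0.32 log2 units on average. The 12 brightest of them were dimmer by 0.18 on average. All are named for BioB, BioC, BioD or Cre, so several read the same transcript and they are not independent readings. The 17 ribosomal RNA probe sets had a median log2 fold change of -1.61. The part of these controls in the results below was not tested beyond rescaling the arrays to them. Scaling to all of them adds 0.32 to every log2 fold change and scaling to the bright ones adds 0.18, so any log2 fold change below can be read on those scales. Rescaled values are given for the 5 genes. For other genes with a printed log2 fold change, they are given where scaling to all controls changes the call, the direction or the size by over 1.5 times.

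ORM1 fell in cells grown with myriocin while the fold change of its paralog ORM2 was close to 0. Of the 5 genes, ORM1 and TSC3 passed the test and both fell. None rose, and LCB1, LCB2 and ORM2 did not pass. Among all genes tested, 28.8% were called lower, 25.5% higher and 54.4% in either direction by limma at an adjusted p under 0.05. The median log2 fold change was -0.26 over the 5 genes and -0.03 over all genes. The groups did not overlap for ORM1, TSC3 and LCB1, all lower with myriocin, against 35.8% of all genes tested that were lower without overlap (66.4% in either direction).

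**Figure D1:**
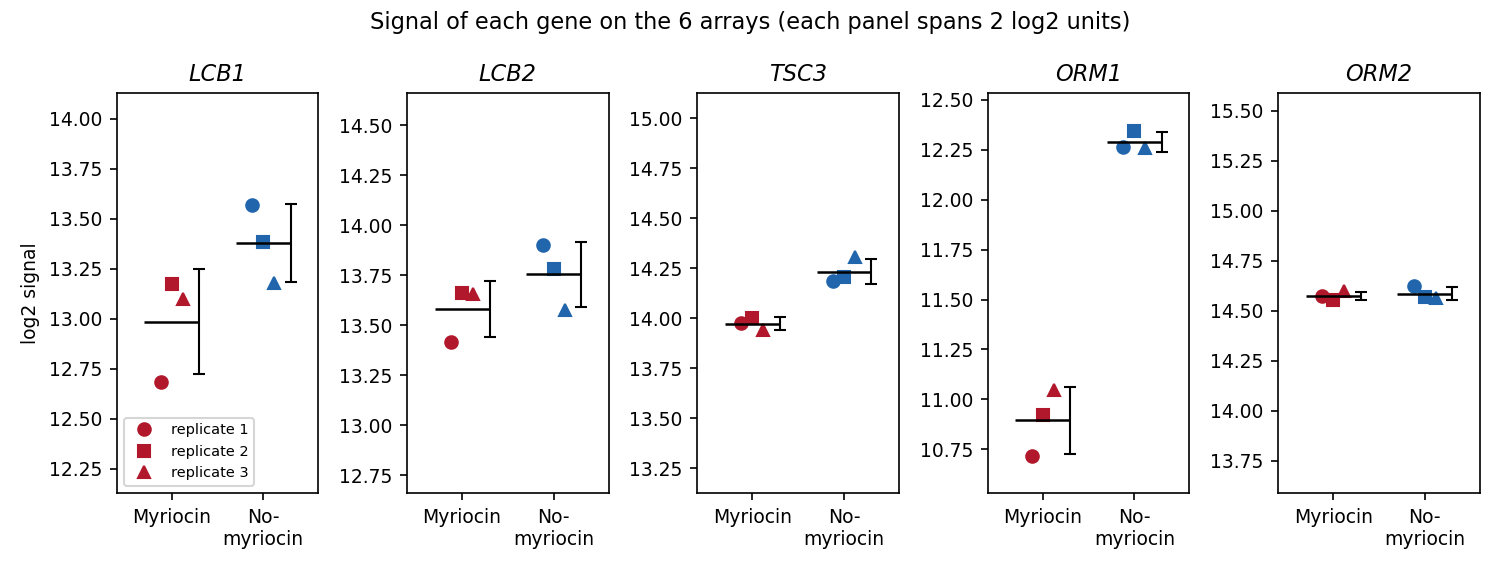
Log2 signal of LCB1, LCB2, TSC3, ORM1 and ORM2 on each of the 6 arrays, Myriocin left and No-myriocin right in each panel, with the group mean as a line, the SD as a bar (n = 3) and a symbol per replicate number. Every panel spans the same 2 log2 units: ORM1 is separated by 1.21 units between the nearest arrays, TSC3 by 0.18, and the groups of LCB2 and ORM2 overlap.

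The catalytic subunits come first. LCB1 encodes the subunit that anchors the enzyme in the membrane and pairs with Lcb2. It had log2 signals of 12.69, 13.18 and 13.10 in Myriocin cultures, against 13.57, 13.39 and 13.18 in No-myriocin cultures. The highest Myriocin array lay just under the lowest No-myriocin array, by 0.0032 log2 units, so the groups touched without overlapping. The log2 fold change was -0.39 (SE 0.16, 95% interval -0.79 to 0.0036, n = 3 per group, limma adjusted p = 0.0848), short of the threshold. Scaled to all hybridisation controls it was -0.077 (limma adjusted p = 0.704), and scaled to the bright ones -0.21 (limma adjusted p = 0.241). The difference leaned on replicate 1 of both groups, the lowest Myriocin and the highest No-myriocin array. It was -0.24 without Myriocin replicate 1 (limma adjusted p = 0.192) and -0.30 without No-myriocin replicate 1 (limma adjusted p = 0.212). Replicates were more spread than for most genes: 78% of the genes tested had a smaller pooled SD than the 0.23 of LCB1.

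LCB2 encodes the subunit that carries the pyridoxal phosphate cofactor. It had log2 signals of 13.42, 13.66 and 13.66 in Myriocin cultures, against 13.90, 13.78 and 13.58 in No-myriocin cultures. No-myriocin replicate 3 lay below the upper pair of Myriocin arrays, so the groups overlapped. The log2 fold change was -0.17 (SE 0.12, 95% interval -0.46 to 0.11, limma adjusted p = 0.242). On the deposited scale the interval spans from 1.37-fold lower to 1.08-fold higher. Scaled to all hybridisation controls the log2 fold change was 0.14 (SE 0.14, limma adjusted p = 0.396), and scaled to the bright ones 0.0065 (SE 0.10, limma adjusted p = 0.962). It was -0.094 without Myriocin replicate 1 (limma adjusted p = 0.542) and -0.10 without No-myriocin replicate 1 (limma adjusted p = 0.534). LCB1 and LCB2 ranked the arrays alike: replicate 1 was lowest and replicate 2 highest among the Myriocin arrays for both. Among the No-myriocin arrays replicate 1 was highest and replicate 3 lowest for both. How many other genes share this ranking was not counted.

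The subunits of the dimer did not differ past the threshold in their response. The within-array difference LCB1 minus LCB2 averaged -0.59 ± 0.13 in Myriocin cultures and -0.38 ± 0.04 in No-myriocin cultures (SD, n = 3 each). The difference of their log2 fold changes was -0.22 (SE 0.09, 95% interval -0.42 to -0.01, limma adjusted p = 0.0713). The within-array differences did not overlap between the groups, and the exact two-sided permutation p was 0.1, the smallest that 3 against 3 arrays can give.

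TSC3, the gene of the small activator, fell slightly but evenly. It had log2 signals of 13.98, 14.00 and 13.94 in Myriocin cultures, against 14.19, 14.21 and 14.31 in No-myriocin cultures. All Myriocin arrays lay below all No-myriocin arrays. The log2 fold change was -0.26 (SE 0.07, 95% interval -0.42 to -0.10, limma adjusted p = 0.019), so the signal fell by 16.5%. The call depends on the scale and on single arrays. Scaled to all hybridisation controls the log2 fold change was 0.055 (limma adjusted p = 0.762), and scaled to the bright ones it was -0.079 (limma adjusted p = 0.572). It was also lost without No-myriocin replicate 2 (limma adjusted p = 0.054) or No-myriocin replicate 3 (0.0569).

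ORM1, the gene of one Orm brake protein, showed the deepest change of the 5. It had log2 signals of 10.72, 10.92 and 11.05 in Myriocin cultures, against 12.26, 12.35 and 12.26 in No-myriocin cultures. A gap of 1.21 log2 units separated the nearest arrays of the groups. The log2 fold change was -1.39 (SE 0.10, 95% interval -1.64 to -1.15, limma adjusted p = 0.000249), or 2.63-fold lower (interval 2.22 to 3.11). Counting ORM1 itself, 225 of 5420 genes, or 4.15%, had a log2 fold change as low or lower. ORM1 fell under every alternative that was tried, by at least 1.08, the value with arrays scaled to all hybridisation controls.

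ORM2, the gene of the other Orm protein, stood nearly still in the deposited values. It had log2 signals of 14.57, 14.55 and 14.60 in Myriocin cultures, against 14.62, 14.57 and 14.56 in No-myriocin cultures. The groups overlapped, and all 6 arrays lay close together: 1.31% of genes tested had a smaller pooled SD than the 0.028 of ORM2. The log2 fold change was -0.01 (SE 0.06, 95% interval -0.16 to 0.14, limma adjusted p = 0.892), an interval from 1.12-fold lower to 1.10-fold higher. That value is relative to the deposited scale. Scaled to the bright hybridisation controls it was 0.17 (limma adjusted p = 0.162), and scaled to all of them 0.30 (limma adjusted p = 0.0765), neither past the threshold.

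**Figure D2:**
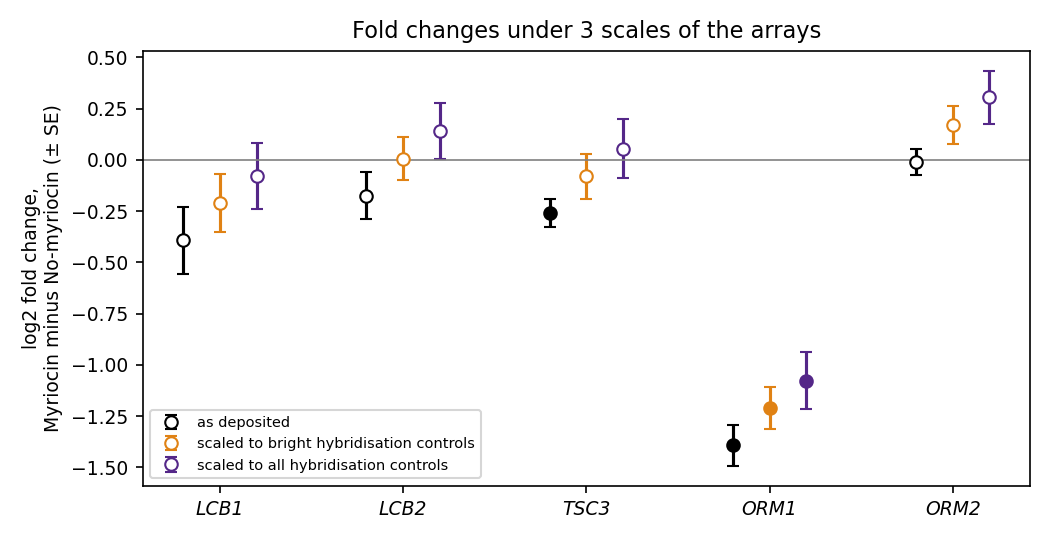
Log2 fold change (Myriocin minus No-myriocin, with the SE as a bar) of the 5 genes with the arrays as deposited, scaled to the bright hybridisation controls and scaled to all hybridisation controls. Filled points have a limma adjusted p under 0.05: ORM1 is filled on each scale, from -1.39 as deposited to -1.08 with all controls, and TSC3 only as deposited.

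The paralogs ORM1 and ORM2 responded differently, and a uniform shift of an array cancels within this comparison. A shift that varies with signal would not cancel, and single probe sets of the hybridisation controls changed by -0.96 to -0.04. ORM1 lay at 10.72 to 12.35 and ORM2 at 14.55 to 14.62, and the part of such a shift was not tested. ORM1 minus ORM2 was -3.86, -3.63 and -3.55 in Myriocin cultures, against -2.36, -2.22 and -2.30 in No-myriocin cultures. The levels of these probe sets cannot be set against each other, but the change of their difference can. It was -1.38 log2 units (SE 0.10, 95% interval -1.62 to -1.14, limma adjusted p = 0.00025), so the ratio of ORM1 to ORM2 was 2.61-fold lower with myriocin. Every Myriocin array lay below every No-myriocin array, and the exact two-sided permutation p was 0.1, the smallest possible. The call held in all 12 alternatives that apply to it.

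All 10 pairs among the 5 genes were compared in the same way, each pair's p adjusted together with all genes. ORM1 fell relative to each of the other genes. Its ratio to LCB1 fell by 50.1% (95% interval of the change -59.8% to -38.0%, limma adjusted p = 0.00136), to LCB2 by 57.0% (-63.7% to -49.1%, limma adjusted p = 0.000351) and to TSC3 by 54.4% (-62.2% to -45.0%, limma adjusted p = 0.00058). These differences held in all 12 alternatives. ORM2 minus TSC3 was 0.25 (SE 0.08, 95% interval 0.06 to 0.44, limma adjusted p = 0.0333) and was called in 6 of 12 alternatives. Among LCB1, LCB2 and TSC3 no pair passed the threshold, and the widest interval of a difference, for LCB1 minus TSC3, runs from -0.57 to 0.30 log2 units. The differences of ORM2 from LCB1 and LCB2, 0.38 and 0.16, did not pass either (limma adjusted p = 0.0823 and 0.241).

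**Figure D3:**
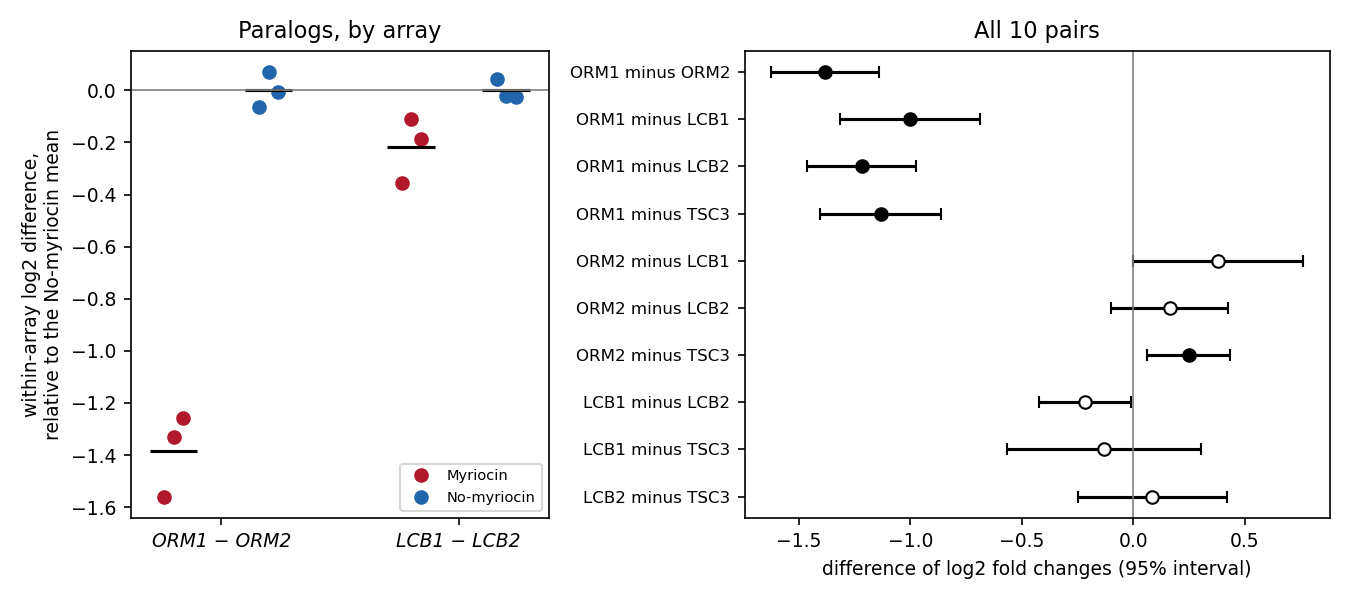
Left, the within-array difference of ORM1 minus ORM2 and of LCB1 minus LCB2 on each array, relative to the No-myriocin mean, with Myriocin left of No-myriocin and a line at each group mean. Right, the difference of log2 fold changes for all 10 pairs with its 95% interval, filled where the limma adjusted p is under 0.05: the 4 pairs with ORM1 lie left of 0, ORM1 minus ORM2 furthest at -1.38, and ORM2 minus TSC3 at 0.25 is the remaining filled point.

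In the authors' deposited table ORM1 had a Myriocin over No-myriocin ratio of 0.381 (the authors' p = 0.000154) and TSC3 a ratio of 0.835 (the authors' p = 0.00309). Both stand in each of the authors' lists of probe sets with a p under 0.05. LCB1, LCB2 and ORM2 had p-values of 0.107, 0.233 and 0.657 in the authors' deposited table and are on none of those lists.

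Other genes around the enzyme were read from 9 lists by role. Of 66 listed genes 64 were measured, of which 21 rose (32.8%, against 25.5% of all genes tested) and 13 fell (20.3%, against 28.8%). Together 53.1% were called, close to the 54.4% of all genes. With arrays scaled to all hybridisation controls, 38 rose (59.4%, against 39.9% of all genes) and 8 fell (12.5%, against 12%).

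Genes of the kinases upstream of the Orm proteins and of their partners were called higher or not called. Of 15 genes, for TORC2, Pkh and Ypk kinases, their partners and the TORC1-regulated kinase Npr1, 10 rose and none fell, where 25.5% of all genes tested rose. Their median log2 fold change was 0.53, against -0.03 over all genes. Of the 10, NPR1 rose by 0.37, or by 0.69 scaled to all hybridisation controls. NPR1 lost its call with the replicate number as a block (limma adjusted p = 0.0659), which left 9. Leaving out an array gave 7 to 11 called higher, and the equal-variance test 7. BIT2, a TORC2 subunit gene, averaged 8.42 ± 0.32 in Myriocin cultures and 6.53 ± 0.25 in No-myriocin cultures (SD, n = 3 each), a log2 fold change of 1.89 (SE 0.20, limma adjusted p = 0.000705). SLM2, whose product brings Ypk1 to TORC2, rose by 1.29 (SE 0.11, limma adjusted p = 0.000373). YPK1 and YPK2, the kinases that phosphorylate the Orm proteins, rose by 0.95 and 1.21 (limma adjusted p = 0.000336 and 0.006), and were named after their values were seen. On the scale of all hybridisation controls all 15 were called higher, and so were 39.9% of all genes tested.

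Genes acting on the Orm proteins in other ways gave a mixed picture. Of 5 subunit genes of phosphatase 2A, which removes phosphate from the Orm proteins, 2 rose: PPH21, a catalytic subunit, by 0.66 and TPD3, the scaffold, by 0.42 (0.73 scaled to all hybridisation controls). As deposited, 25.5% of all genes tested rose. All 5 phosphatase genes were called higher when scaled to all hybridisation controls, and so were 39.9% of all genes tested. Of the Dsc ubiquitin ligase, which marks Orm2 for degradation, 4 of 6 listed genes were measured. DSC3 and UBX3, subunits of the ligase, rose by 1.10 and 0.44 (UBX3 by 0.76 scaled to all hybridisation controls), while TUL1, its RING subunit, fell by 0.59 and lost its call on that scale (-0.27, limma adjusted p = 0.157). SAC1, the phosphoinositide phosphatase found in a complex with the transferase and the Orm proteins, had a log2 fold change of 0.0049 (SE 0.09, limma adjusted p = 0.966), or 0.32 scaled to all hybridisation controls (limma adjusted p = 0.0775).

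Genes for steps after the transferase fell or did not pass in the deposited values. Of 12 genes from the keto-reductase to the complex sphingolipids, 5 fell and none rose (median -0.31), while 3 rose and 2 fell when scaled to all hybridisation controls. Of all genes tested, 28.8% fell and 25.5% rose as deposited, and 12% fell and 39.9% rose on that scale. KEI1, a subunit of inositol phosphorylceramide synthase, and IPT1, which makes the most complex sphingolipid, each fell by 0.74, and by 0.43 on that scale. Of 6 genes for very-long-chain fatty acids 4 fell (median -0.53), or 3 on that scale, led by the elongase gene ELO2 at -1.11 and the dehydratase gene PHS1 at -0.79 (-0.47 on that scale).

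Of 9 genes for the turnover of long-chain bases and ceramides, 6 were called higher and 1 lower. Among all genes tested, 25.5% were called higher and 28.8% lower. Scaled to all hybridisation controls, 8 were called higher and 1 lower, against 39.9% and 12% of all genes. YSR3, counted as higher on both scales, had 0 No-myriocin arrays and 1 Myriocin array above the background ceiling, so no fold is given. LCB5, a long-chain base kinase, rose by 1.02 and HFD1, a fatty aldehyde dehydrogenase, by 0.92. LCB3, the phosphatase that returns phosphorylated bases to the pool, fell by 0.90 (SE 0.19), or by 0.58 scaled to all hybridisation controls.

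The substrates of the transferase were covered by short lists. Among all genes tested, 28.8% fell and 25.5% rose as deposited, and 39.9% rose when scaled to all hybridisation controls. Of 6 genes for serine supply 2 fell and 1 rose: SER2, which releases serine from phosphoserine, fell by 1.82 (SE 0.27, limma adjusted p = 0.00246) and SER3, the entry enzyme of that route, by 1.14. SHM2, the cytosolic hydroxymethyltransferase, rose by 0.33 (limma adjusted p = 0.0319; 0.65 scaled to all hybridisation controls), a call lost in 5 of 6 fits that left out an array. Of 6 genes for palmitoyl-CoA supply none was called, with log2 fold changes from -0.13 to 0.28; 2 rose when scaled to all hybridisation controls.

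**Figure D4:**
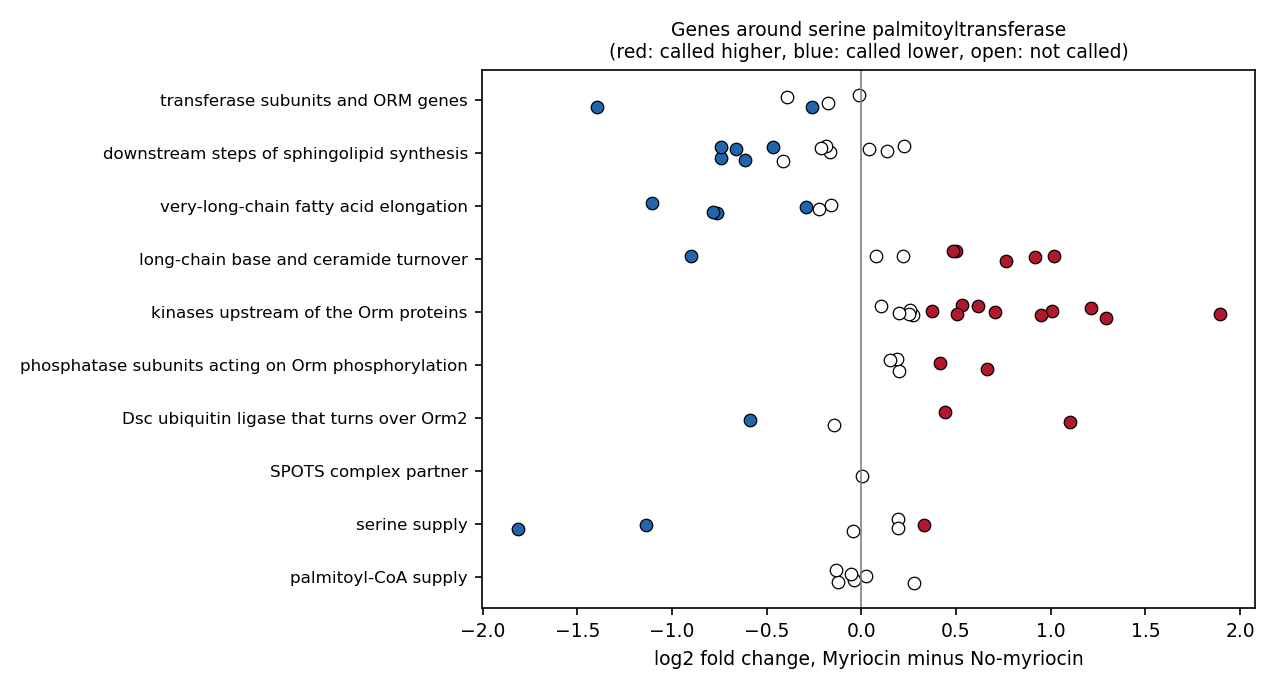
Log2 fold changes (Myriocin minus No-myriocin) of the 5 genes and of the measured genes of each list, a point per gene, red where called higher, blue where called lower and open where not called; YSR3, at background, is left out. Genes of synthesis and elongation lie mostly left of 0. All 15 genes of the upstream kinases and their partners lie right of it, from 0.11 to 1.89.

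Unequal response of paralogs was also seen elsewhere in the pathway, on a list of pairs drawn up after the data had been examined and given here without a test. In 10 pairs with both genes above background, the log2 fold changes differed by 0.04 to 1.09 with a median of 0.45. The difference of 1.38 for ORM1 and ORM2 was larger than in any of these 10, but the list is not complete. BIT2 and BIT61, paralogous TORC2 subunit genes left off it, lay further apart, with log2 fold changes of 1.89 and 0.11. Scaled to all hybridisation controls BIT61 was at 0.42 (limma adjusted p = 0.0353). Of the 10, the nearest to ORM1 and ORM2 was SER3 minus SER33 at -1.09. There SER33, a paralog of SER3, had a log2 fold change of -0.04, or 0.27 scaled to all hybridisation controls (limma adjusted p = 0.124). At the other end were LAC1 and LAG1, which encode ceramide synthases: their log2 fold changes were -0.66 and -0.62, and both lost their calls when scaled to all hybridisation controls (-0.34 and -0.30, limma adjusted p = 0.0552 and 0.0751). LCB3 and YSR3 were left out because YSR3 was at background.

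**Figure D5:**
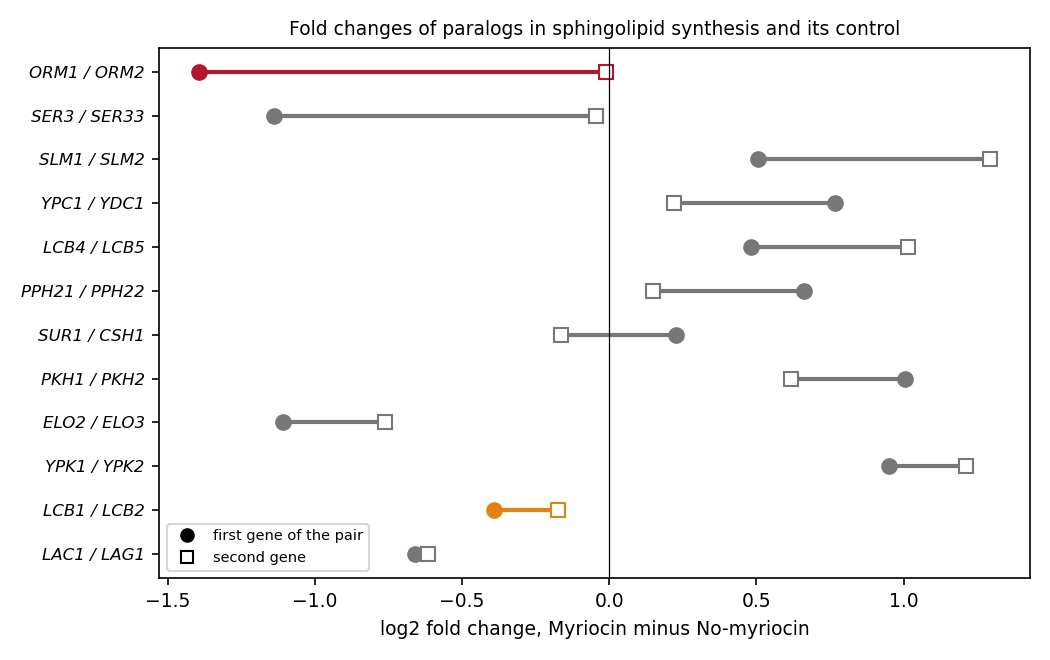
Log2 fold change (Myriocin minus No-myriocin) of both genes in each pair, joined by a line, ordered by the size of their difference, with ORM1 and ORM2 in red and LCB1 and LCB2 in orange. Among the pairs drawn, the line of ORM1 and ORM2 is the longest, at 1.38 log2 units, and that of LAC1 and LAG1 the shortest, at 0.04. BIT2 and BIT61, which lie further apart, are not drawn.

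Profiles over the 6 arrays were compared by the root-mean-square difference of log2 signals after each gene's own mean was removed. Those nearest to ORM1 were LPP1, a lipid phosphate phosphatase gene, at 0.088, the spindle pole body gene KAR1 at 0.092 and SLF1, an RNA-binding protein gene, at 0.093. These were the 3 genes within 0.1 log2 units of it. The distance is not scaled by a gene's own change or spread, so a gene with the same pattern and another fold lies far off, and the numbers within 0.1 are not comparable between genes. ORM2 had 781 genes within that distance, nearest PTH1, FMT1 and YET1 at 0.021 to 0.024. TSC3 had 529, nearest TOA1, TMA64 and GRX3 at 0.022 to 0.026. LCB2 had 104, nearest YCL049C, OCH1 and BLM10 at 0.031 to 0.051. LCB1 had 20, nearest GMC1, ANT1 and CNA1 at 0.062 to 0.083.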

How the data were processed

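Per the labels' protocols, total RNA of each culture was labelled as biotinylated cRNA for a 3' expression array. The authors deposited a normalised log2 signal for each probe set, and Partek is the tool in the submitters' processing notes. Its version and the normalisation method are not stated in those notes or the headers. The log2 scale was settled from the ratio column of the authors' table, which the group means matched to within 8.48e-05. That table also holds the authors' p-values and a signed fold score, per the file headers. The array's build is not named, so no coordinates are given.

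Of 5900 probe sets, 184 were controls, 79 named several genes and 192 were unnamed here. The other 5445 named 1 gene each, and the brightest was used for 24 genes with several. Each gene was tested two-sided in limma (version 3.58.1, run in R 4.3.3) by lmFit followed by eBayes, and p-values were adjusted by Benjamini-Hochberg over all genes. Gene pairs were tested as within-array differences appended to the same table, 5430 rows in all. The scripts were tested on simulated data, and figures were drawn with matplotlib 3.10.9. The background ceiling is the highest of 50 negative-control probe sets. Precision is limited by having 3 arrays in each group.

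The members, lists and tests were chosen with earlier results of these data known. Named from each list were up to 2 called genes in each direction, and 3 nearest profiles per member. Deviations from the group means correlated across genes at 0.169, 0.233 and 0.175 for equal replicate numbers. For unequal numbers they correlated at -0.151 to -0.0552. These values are not independent, since the deviations within a group cancel. Whether equal numbers mark paired cultures was not tested. The main fit treats the cultures as unpaired, and the replicate number as a block is among the alternatives.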

Additional observations from a re-analysis of the deposited data

How the results depend on the processing

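The alternatives were quantile normalisation, equal array medians, scaling to hybridisation controls, the dimmest 25% of genes left out, averaged probe sets, robust variance with an intensity trend, an equal-variance test, the replicate number as a block, and each array left out. Scaling to the 12 bright probe sets of the hybridisation controls was chosen after seeing the data. ORM1 and the difference of ORM1 from ORM2 kept direction and call in all 15 and all 12 alternatives, at -1.47 to -1.08 and -1.45 to -1.29. Scaling to all hybridisation controls raised every log2 fold change by 0.32 and the bright ones by 0.18, by construction. With all controls LCB2 turned to 0.14, TSC3 to 0.055 and ORM2 to 0.30. With the bright ones LCB2 turned to 0.0065, ORM2 to 0.17, and TSC3 lost its call at -0.079. Over all genes, calls were 1384 higher and 1562 lower as deposited (47% higher), 2164 and 651 with all controls (76.9% higher), and 1819 and 925 with the bright ones (66.3% higher). Of the listed genes, 21 were called higher and 13 lower as deposited, and 38 and 8 with all controls. The difference of LCB1 from LCB2, at -0.22, passed with robust variance and the intensity trend together (limma adjusted p = 0.0264), and the cause was not tested. Leaving out an array gave -0.49 to -0.24 for LCB1, -0.26 to -0.094 for LCB2, -0.28 to -0.22 for TSC3, -0.022 to 0.0077 for ORM2, -0.27 to -0.15 for LCB1 minus LCB2, and 2277 to 2652 genes called. With the replicate block, no call of the 5 genes or of the ORM and LCB pairs changed (TSC3 limma adjusted p = 0.046), and 2845 genes were called.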
